A study of Mus musculus with 9 samples.

Results

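The IFIT and IFITM families were examined as a group of 9 named genes, 5 IFIT genes (Ifit1, Ifit1bl1, Ifit2, Ifit3 and Ifit3b) and 4 IFITM genes (Ifitm1, Ifitm2, Ifitm3 and Ifitm6), in RNA-seq of sorted fetal liver (FL) macrophages. The members were chosen by gene symbol with earlier results of these data known, so counts of members called describe the group and do not test it. All 9 had a row among the 13708 genes of the table. The samples were CD45+ F4/80hi CD11blow macrophages from mouse livers at embryonic stage E15.5, 5 from Mrc1Cre Xpr1fl/fl and 4 from Xpr1fl/fl embryos. Both genotypes carry the floxed Xpr1 alleles, in which loxP sites flank an exon of the gene for the phosphate exporter XPR1, so the control samples differ in lacking Cre. The Cre is expressed from the Mrc1 locus (the gene for CD206), and was used as a heterozygous allele. Liver sinusoidal endothelium also expresses Mrc1, so the Cre is not limited to macrophages. All strains had a C57BL/6JRj background, and nothing in the labels ties a sample to a litter. P-values here therefore measure the spread between these samples.

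Type I interferons signal through the receptor chains IFNAR1 and IFNAR2 and the kinases JAK1 and TYK2. The transcription factors they act on include STAT2 and IRF9 and bind a promoter element built from repeated GAAA letters. Genes of the IFIT family (interferon-induced proteins with tetratricopeptide repeats) are classical targets of that pathway, and their products bind RNA that lacks the marks of host mRNA and restrict its translation. IFITM proteins (interferon-induced transmembrane proteins) are small membrane proteins that hinder the fusion of enveloped viruses with the membranes of the cell or its endosomes. Macrophages are known to express both families at rest and to raise them after interferon exposure.

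Xpr1, the deleted gene, was lower in every Mrc1Cre Xpr1fl/fl sample, at 1173.5, 1187.4, 1073.7, 1285.3 and 1090.8 normalized counts against 1780.9, 1859.6, 2239.2 and 2046.7 in the Xpr1fl/fl samples. Its log2 fold change was -0.77 ± 0.08 (SE, limma adjusted p = 4.13e-05). These are gene-level values that also include the exons outside the loxP sites. Mrc1, which carries the Cre insertion, was at 5923.1 to 9094.8 against 22143.6 to 28348.4 normalized counts. The column names also carry 3 dates of unstated meaning: 1 Mrc1Cre Xpr1fl/fl sample (sample 5) shares the earliest date with 3 controls (samples 1, 2 and 3), the other 4 Mrc1Cre Xpr1fl/fl samples have the latest date, and control sample 4 alone has the middle one. The lists of cell type markers showed the other cells a sort can carry: summed erythroid markers were at 58168.6 to 154522.7 normalized counts in Mrc1Cre Xpr1fl/fl and 207965.6 to 321054.3 in Xpr1fl/fl samples. Of these, 10 of 10 were lower at a limma adjusted p under 0.05, the threshold for all marker counts here. The marker counts are for genotype alone, where 21.5% of all genes tested were called higher and 21.6% lower. Hepatocyte markers were lower for 9 of 9 genes (sums of 34887.5 to 45141.4 against 58820.5 to 101167.4) and endothelial markers for 9 of 10 (2329.7 to 2725.8 against 3039.3 to 4820.5), whereas sums of the 11 pan-macrophage markers overlapped (286838.4 to 305672.5 against 278678.6 to 329753.5), with 2 genes higher (among them Ptprc, log2 difference 0.85) and 3 lower (among them C1qa, -0.86). Of 9 monocyte markers, 2 were higher and 4 lower (10729.7 to 14186.3 against 8989.0 to 11932.4). For genotype alone the median log2 differences were -1.80 for erythroid, -1.11 for hepatocyte and -1.23 for endothelial markers. With the date in the model, which leaves sample 5 against control samples 1, 2 and 3, they were -0.96, -0.56 and -1.05. The date moved the monocyte median from -0.20 to -0.60 and the pan-macrophage median from 0.02 to 0.04. In that model Ptprc was at 0.56 and C1qa at -0.77. None of the 62 markers was at 0 in any sample, the lowest value being 0.96 for the neutrophil gene Ly6g. How much these shifts contribute to the results below was not tested.

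To determine whether the families differed between genotypes, each gene was compared on log2(normalized count + 1) with limma, a linear model that borrows variance information across genes. All 9 members passed the filter on low values. Of these, 7 were higher in Mrc1Cre Xpr1fl/fl macrophages and 0 lower at an adjusted p under 0.05, where 21.5% of all 13594 genes tested were called higher and 21.6% lower. At an unadjusted p under 0.05 the count of lower members was also 0. The 7 were the 5 IFIT genes, Ifitm3 and Ifitm2, and the median log2 fold change of the 9 members was 0.82, against 0.00 over all genes tested. In 6 of the 9, each Mrc1Cre Xpr1fl/fl sample lay above each control, a pattern found in 16.6% of genes tested. With the date added to the model, which in effect compares Mrc1Cre Xpr1fl/fl sample 5 with control samples 1, 2 and 3, 3 members were called higher (Ifit1, Ifit1bl1 and Ifitm3; 4.24% of all genes) and 1 lower (Ifitm1; 4.54% of all genes). Bulk RNA cannot tell fewer cells of a type from less RNA per cell.

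**Figure D1:**
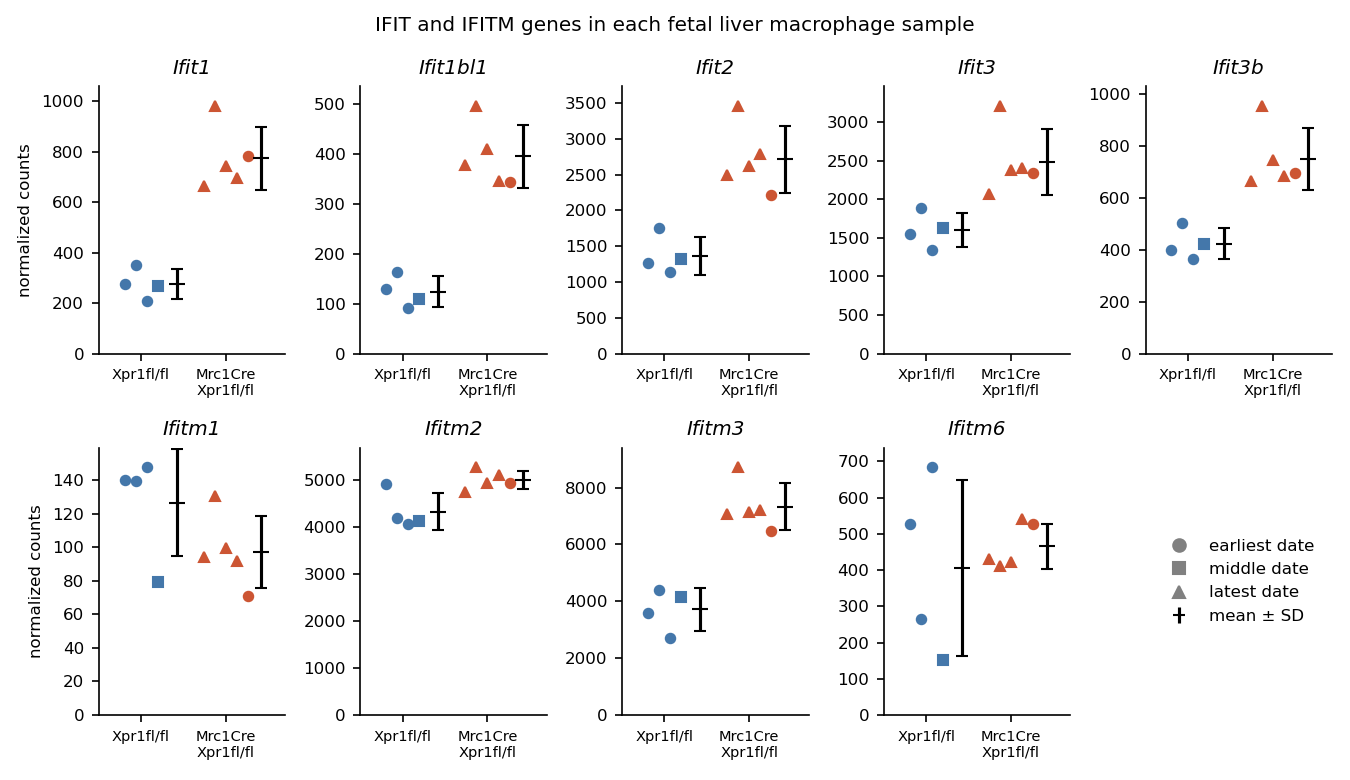
Normalized counts (vertical axes, starting at 0) of the 9 genes in each Xpr1fl/fl (blue) and Mrc1Cre Xpr1fl/fl (red) sample, with marker shapes for the date in the column name and black bars for the mean ± SD. The 5 IFIT genes and Ifitm3 show no overlap between the genotypes, Ifitm2 and Ifitm1 overlap through 1 control sample each, and the Ifitm6 controls lie on both sides of the Mrc1Cre Xpr1fl/fl samples.

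The IFIT genes lie together on chromosome 19 (gene positions are those of GENCODE in GRCm39 throughout). Ifit1 (ENSMUSG00000034459, chr19:34618271-34632174, plus strand), whose product binds the 5′ end of RNA without cap methylation, was measured at 665.6, 982.6, 742.7, 695.7 and 782.8 normalized counts in Mrc1Cre Xpr1fl/fl and at 277.7, 352.9, 208.1 and 265.9 in Xpr1fl/fl samples. The groups were widely separated, the lowest Mrc1Cre Xpr1fl/fl sample being far above control sample 2, the highest control. Group means were 773.9 ± 124.9 and 276.2 ± 59.5 (SD, n = 5 and 4), a ratio of 2.8. On the log2 scale the difference was 1.49 ± 0.15 (SE, limma adjusted p = 3.82e-05), with 1.51 ± 0.28 once the date was in the model (adjusted p = 0.0124).

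Ifit1bl1 (ENSMUSG00000079339, chr19:34570291-34579356, minus strand), an Ifit1-like gene, had values of 378.9, 496.8, 410.6, 346.9 and 343.0 in Mrc1Cre Xpr1fl/fl and 128.9, 164.3, 91.7 and 110.0 in Xpr1fl/fl macrophages. It showed the largest fold change of the 9 members for genotype alone, again without overlap, and came after Ifit1 with the date in the model. Its mean rose from 123.7 ± 31 to 395.3 ± 63.0 normalized counts (SD), and the log2 difference was 1.69 ± 0.17 (SE, limma adjusted p = 3.78e-05). The date term left 1.45 ± 0.30 (adjusted p = 0.0187). Ranked by log2 fold change, Ifit1bl1 and Ifit1 took places 104 and 149 among the 13594 genes tested.

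Ifit2 (ENSMUSG00000045932, chr19:34527932-34554524, plus strand), which encodes an RNA-binding partner of other IFIT proteins, gave 2490.9, 3459.5, 2615.8, 2793.4 and 2210.9 normalized counts in Mrc1Cre Xpr1fl/fl samples and 1263.9, 1748.1, 1132.8 and 1321.4 in controls. Sample 5, the Mrc1Cre Xpr1fl/fl sample of the earliest date, was the lowest of its group but still above every control. The means were 2714.1 ± 467.6 and 1366.5 ± 266.3 (SD), and the log2 difference was 0.99 ± 0.14 (SE, limma adjusted p = 0.000238). With the date in the model it was 0.70 (95% CI 0.20 to 1.21, adjusted p = 0.085), which no longer passed.

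Ifit3 (ENSMUSG00000074896, chr19:34560899-34566443, plus strand) and Ifit3b (ENSMUSG00000062488, chr19:34585328-34590801, plus strand) are near-identical copies, and their human counterpart IFIT3 is known to stabilise IFIT1 on RNA. Ifit3 was at 2071.6, 3215.4, 2375.9, 2405.9 and 2347.5 normalized counts in Mrc1Cre Xpr1fl/fl and 1555.6, 1884.4, 1343.2 and 1623.5 in Xpr1fl/fl samples. Ifit3b was lower throughout, at 666.8, 956.1, 745.6, 683.5 and 697.7 and 399.7, 504.9, 365.9 and 423.0, respectively. For both copies the groups did not overlap, although Mrc1Cre Xpr1fl/fl sample 1 and control sample 2 came close for Ifit3. The log2 difference was 0.63 ± 0.12 (SE) for Ifit3 and 0.82 ± 0.12 for Ifit3b (limma adjusted p = 0.00197 and 0.000357). Neither passed with the date in the model, where the log2 differences were 0.57 (95% CI 0.07 to 1.07) and 0.73 (0.24 to 1.23), with adjusted p = 0.143 and 0.0702.

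The coding sequences of Ifit3 and Ifit3b differ at 11 of 1212 bases in their canonical GENCODE transcripts (99.1% identity), and 57.8% of the distinct stretches of 31 bases in Ifit3b transcripts also occur in Ifit3. Reads from such stretches are divided between the copies by estimation, so each copy's value is less certain than their sum. Added up and tested as 1 gene, the pair gave a log2 difference of 0.67 (limma adjusted p = 0.00116). Ifit3b supplied 24.4%, 22.9%, 23.9%, 22.1% and 22.9% of the pair in Mrc1Cre Xpr1fl/fl samples and 20.4%, 21.1%, 21.4% and 20.7% in controls. This share was larger in each Mrc1Cre Xpr1fl/fl sample than in any control, by 2.33 percentage points on average (two-sided exact permutation test, p = 0.0159, the smallest this design allows, and 0.0159 after adjustment over the 2 shares tested). The share tests had no term for the date. The other IFIT coding sequences were less alike, Ifit1 and Ifit1bl1 sharing 73.1% of aligned bases, and only 0.219% of the 31-base stretches of Ifit2 occurred in another gene.

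The IFITM genes lie within 63.1 kb on chromosome 7. Ifitm3 (ENSMUSG00000025492, chr7:140589499-140591282, minus strand), which acts in late endosomes, was the most abundant member in Mrc1Cre Xpr1fl/fl macrophages, with 7055.5, 8713.5, 7157.8, 7218.4 and 6487.4 normalized counts against 3575.3, 4412.9, 2724.6 and 4153.8 in controls. Every Mrc1Cre Xpr1fl/fl sample exceeded every control. The means of 7326.5 ± 827.9 and 3716.6 ± 748.3 (SD) corresponded to a log2 difference of 1.00 ± 0.13 (SE, limma adjusted p = 0.000157), or 0.89 ± 0.21 with the date in the model (adjusted p = 0.0329).

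Ifitm2 (ENSMUSG00000060591, chr7:140534738-140536228, minus strand), a close relative of Ifitm3, was abundant in both genotypes and changed little: 4741.3, 5260.9, 4931.6, 5087.8 and 4938.3 normalized counts in Mrc1Cre Xpr1fl/fl and 4907.3, 4193.1, 4059.0 and 4114.2 in Xpr1fl/fl samples. Control sample 1 lay among the Mrc1Cre Xpr1fl/fl values and the other 3 controls below them. The log2 difference was 0.21 ± 0.06 (SE, limma adjusted p = 0.0165). That call was lost without Xpr1fl/fl sample 3 (0.18, adjusted p = 0.0549), with the date in the model (0.18, adjusted p = 0.347) and under both other scalings (0.13 and 0.10, adjusted p = 0.125 and 0.233). Within the sum of Ifitm2 and Ifitm3, Ifitm2 made up 40.2%, 37.7%, 40.8%, 41.3% and 43.2% in Mrc1Cre Xpr1fl/fl samples and 57.9%, 48.7%, 59.8% and 49.8% in controls. Its mean share was thus 40.6% ± 2.02 against 54.0% ± 5.62 (SD), without overlap (two-sided exact permutation test, p = 0.0159, the smallest this design allows, and 0.0159 adjusted over the 2 shares). This restates the values above, since Ifitm3 was higher and Ifitm2 changed little, and the test had no term for the date. Other annotated genes hold part of both sequences: 31.3% of the 31-base stretches of Ifitm2 and 10.6% of those of Ifitm3 occurred in another gene.

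Ifitm1 and Ifitm6 did not pass the test. Ifitm1 (ENSMUSG00000025491, chr7:140546316-140549743, plus strand), found mainly at the cell surface, was at 94.3, 130.4, 99.9, 91.8 and 71.0 normalized counts in Mrc1Cre Xpr1fl/fl and 140.0, 139.6, 147.8 and 79.1 in control samples. Control sample 4 was low, and the other 3 controls were above all Mrc1Cre Xpr1fl/fl samples. The log2 difference was -0.36 (95% CI -0.84 to 0.12, limma adjusted p = 0.208). Without control sample 4 it was -0.57 (limma adjusted p = 0.0321), so in that fit Ifitm1 was called lower while Ifitm3 was called higher. With the date in the model, which also sets control sample 4 aside, the log2 difference of Ifitm1 was -0.99. In 16 of the 18 alternatives run, Ifitm1 was not called. Under quantile normalization its log2 difference was -0.04 (limma adjusted p = 0.904).

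Ifitm6 (ENSMUSG00000059108, chr7:140595612-140597837, minus strand) gave 430.1, 411.5, 421.0, 540.1 and 526.4 in Mrc1Cre Xpr1fl/fl and 527.3, 264.5, 683.4 and 150.9 in Xpr1fl/fl samples. The controls spanned a range wider than, and on both sides of, that of the Mrc1Cre Xpr1fl/fl samples, with coefficients of variation of 59.7% and 13.3%. The log2 difference was 0.42 (95% CI -0.36 to 1.19, limma adjusted p = 0.365), which was 0.02 without control sample 4 and 0.74 without control sample 3 and passed in neither case. Summed granulocyte and progenitor markers had the same order over the controls as Ifitm6, at 34312.4, 21626.4, 56629.7 and 10511.0 normalized counts, and were at 6409.9, 5926.9, 9340.4, 7141.6 and 18980.6 in the Mrc1Cre Xpr1fl/fl samples. Of those 13 markers, 6 were called lower and 0 higher for genotype alone. Their median log2 difference was -1.60, or -0.77 with the date in the model. Their part in the Ifitm6 values was not tested.

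**Figure D2:**
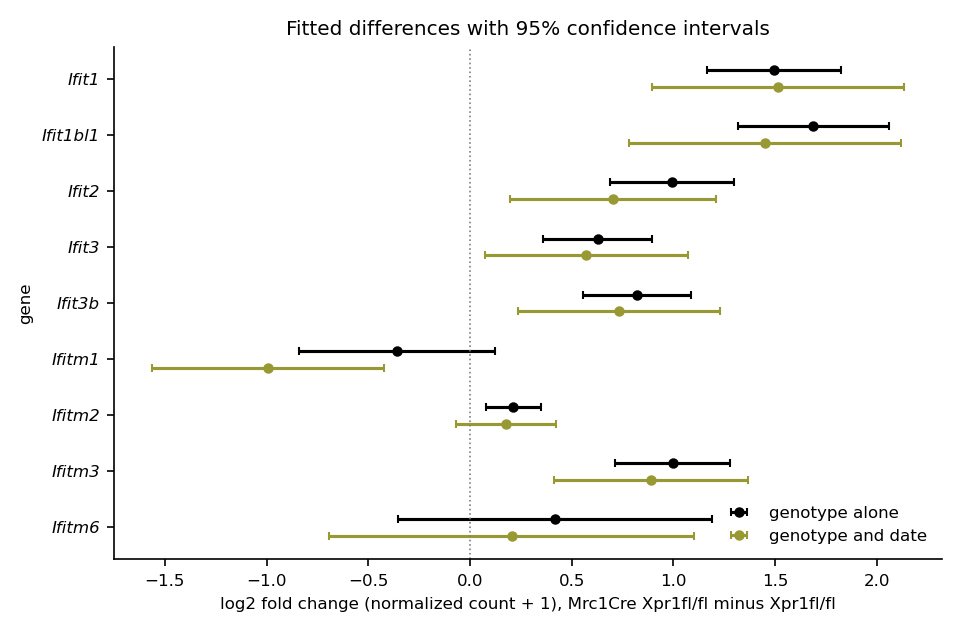
Log2 fold change of each gene (horizontal axis, Mrc1Cre Xpr1fl/fl minus Xpr1fl/fl) with its 95% confidence interval from limma, for the model with genotype alone (black) and with genotype and date (olive). The intervals of the 5 IFIT genes and Ifitm3 stay above 0 in both models and are wider with the date, whereas those of Ifitm1 and Ifitm6 include 0 for genotype alone.

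Because the IFIT genes moved together, the sequence before their starts is shown. RefSeq windows from 250 bases before to 50 bases after each annotated start (GRCm38.p6) were found for all 9 members, 11 windows in total. They were searched on both strands for 2 GAAA repeats in the same direction with any 2 bases between them, GAAANNGAAA or TTTCNNTTTC, overlapping matches being counted. A match was present for 6 of 9 members (Ifit1, Ifit1bl1, Ifit3, Ifit3b, Ifitm2 and Ifitm3), for 4.02% of tested genes with a window and for 3.44% of all 32851 windows. In the stretches below, capitals mark the GAAA or TTTC repeats.
Ifit1 (chr19:34640773-34640825, plus strand): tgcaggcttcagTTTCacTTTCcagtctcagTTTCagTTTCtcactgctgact
Ifit3 (chr19:34583361-34583428, plus strand): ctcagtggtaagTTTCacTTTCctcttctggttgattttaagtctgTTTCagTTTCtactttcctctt
Ifit3b (chr19:34607757-34607824, plus strand): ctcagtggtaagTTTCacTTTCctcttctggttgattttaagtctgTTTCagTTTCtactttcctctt
Ifit1bl1 (chr19:34602051-34602084, minus strand): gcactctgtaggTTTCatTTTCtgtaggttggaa
Ifitm2 (chr7:140955986-140956019, minus strand): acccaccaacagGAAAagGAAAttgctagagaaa
Ifitm3 (chr7:141010715-141010744, minus strand): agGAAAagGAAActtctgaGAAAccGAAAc

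Ifit1, Ifit3, Ifit3b and Ifitm3 each held 2 matches. The stretches of Ifit3 and Ifit3b were identical in all 68 letters, though their matches began 156 and 122 bases before the annotated start of Ifit3 and 188 and 154 before that of Ifit3b. In Ifit1 the matches began at 104 and 85 bases before the start, and in Ifitm3 at bases 3 and 20 after it. Ifit1bl1 has 2 annotated starts, with 1 match in each window. No match was found in the windows of Ifit2, Ifitm1 and Ifitm6, which says only that these letters are not there: Ifit2 was called higher without a match, and Ifitm2 has a match and changed little. Among the other interferon-stimulated genes tested that had a window, 46.3% held a match.

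The window of Ifit1 overlaps by 245 bases with that of Ifit1bl2, an Ifit1-like gene read from the opposite strand, and both matches lie in the window of either gene. Ifit1bl2 was barely detected and not called, at 5.3 to 17.6 normalized counts in Mrc1Cre Xpr1fl/fl and 9.0 to 14.1 in Xpr1fl/fl samples. The log2 difference was -0.21 (95% CI -1.01 to 0.59, limma adjusted p = 0.675). GENCODE places Ifit1 within the span of Ifit1bl2, and 18.7% of the 31-base stretches of Ifit1bl1 and 3.27% of those of Ifit1 also occur in Ifit1bl2.

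Of 12 flanking genes tested beside the clusters, 5 were called, in both directions. Such calls were common over all genes tested, 21.5% being called higher and 21.6% lower. The 5 IFIT members span 104.2 kb. Lipa (lysosomal acid lipase), 5.77 kb before the cluster, was higher (log2 difference 0.32 ± 0.08 SE, limma adjusted p = 0.00702), Slc16a12, 10.5 kb after it, was lower (-1.33 ± 0.28, adjusted p = 0.00326), and the other 4 flanking genes tested (Acta2, Fas, Pank1 and Kif20b) were not called. Around the IFITM cluster, Ptdss2 was lower (-0.72, limma adjusted p = 0.000369). Nlrp6 was lower (-1.24, adjusted p = 0.0449) at low counts that overlapped, 4.0 to 20.9 in Mrc1Cre Xpr1fl/fl and 18.7 to 49.6 in controls. Pkp3 was higher, also at low counts (1.06, adjusted p = 0.0173), and Psmd13, Pgghg and Sigirr were not called. The 5 calls are for genotype alone. Adding the date leaves 1 Mrc1Cre Xpr1fl/fl sample to compare with 3 controls. In that model the log2 differences were 0.21 for Lipa, -1.01 for Slc16a12, -0.37 for Ptdss2, -0.17 for Nlrp6 and 1.03 for Pkp3. Ifitm10, a distant family relative on chromosome 7, was lower, at 79.7, 63.8, 95.3, 75.3 and 96.2 in Mrc1Cre Xpr1fl/fl and 147.3, 162.0, 221.1 and 249.8 in Xpr1fl/fl samples (log2 difference -1.22 ± 0.19 SE, limma adjusted p = 0.00046), but did not pass with the date in the model (adjusted p = 0.104). Ifitm5 and Ifitm7 had no row in the table.

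**Figure D3:**
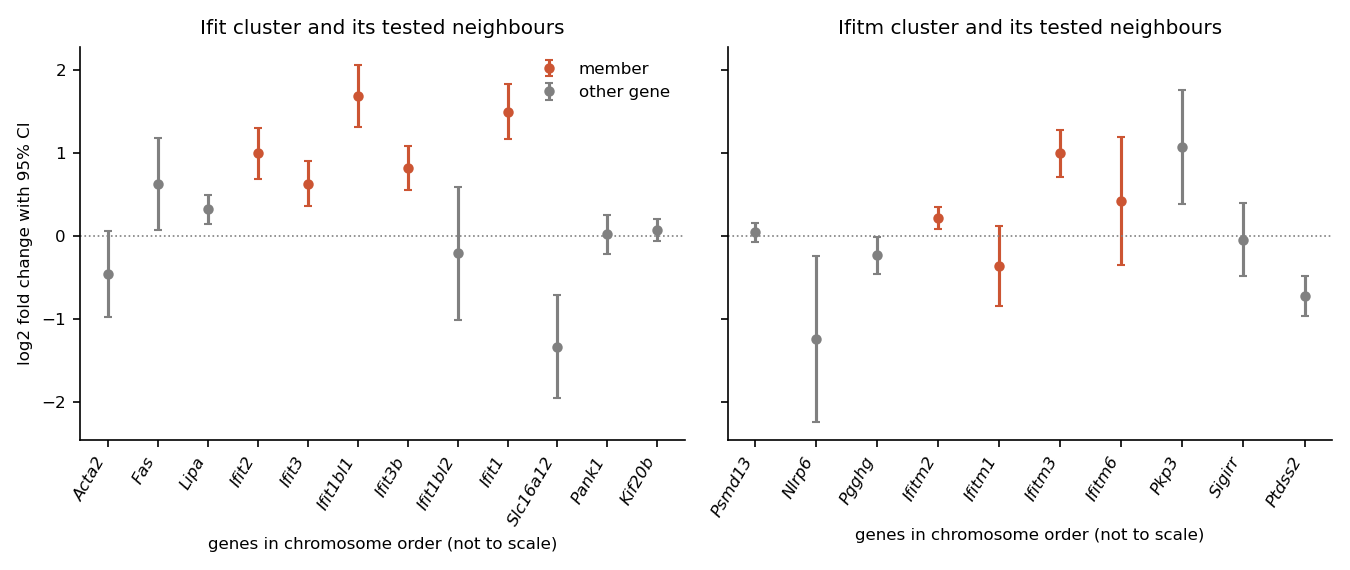
Log2 fold change with 95% confidence interval (vertical axis) of the genes tested in and beside the IFIT cluster (left) and the IFITM cluster (right), in chromosome order, with members in red and other genes in grey. Within the IFIT cluster the 5 members lie above 0 and the interval of Ifit1bl2 includes 0, while genes on either side lie on both sides of 0.

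Levels were compared between genes per kb of the longest protein-coding transcript. In Mrc1Cre Xpr1fl/fl macrophages Ifitm3 was highest at 5737 ± 648.3 normalized counts per kb (SD), followed by Ifitm2 (5042 ± 196.2), Ifit3 (863.4 ± 149.7), Ifitm6 (564.0 ± 75.2), Ifit2 (553.6 ± 95.4), Ifit3b (367.3 ± 58.3), Ifit1bl1 (179.7 ± 28.6), Ifitm1 (109.9 ± 24.1) and Ifit1 (104.3 ± 16.8). Of neighbours in that order, the ranges over samples overlapped for Ifitm3 and Ifitm2, for Ifitm6 and Ifit2, for Ifit2 and Ifit3b, and for Ifitm1 and Ifit1. In controls the first places were exchanged, Ifitm2 being at 4362 ± 400.4 and Ifitm3 at 2910 ± 586.0 without overlap, and Ifit1bl1 (56.2 ± 14.1) and Ifit1 (37.2 ± 8.02) came last with overlapping ranges. The 2 genes with the largest fold changes were thus among the least abundant members per kb in controls. Without division by length, the control mean of Ifit1 (276.2 normalized counts) lay above those of Ifitm1 (126.6) and Ifit1bl1 (123.7).

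Samples of a genotype also differed among themselves, and the IFIT genes did so together. Mrc1Cre Xpr1fl/fl sample 2 was the highest of its group for all 5 IFIT genes, Ifitm1, Ifitm2 and Ifitm3, and among controls sample 2 was highest and sample 3 lowest for all 5 IFIT genes and Ifitm3. After subtracting the genotype means, the log2 values of the 10 pairs of IFIT genes correlated with Pearson r of 0.81 to 0.96 over the 9 samples, and Ifitm3 correlated with the IFIT genes at 0.82 to 0.85. Ifitm2 and Ifitm1 followed them less closely (r of 0.21 to 0.38 and 0.22 to 0.45), and Ifitm6 ran the other way (-0.47 to -0.36). These are descriptions over 9 samples that share libraries and scaling. By the same measure, among genes with a mean of at least 50, those most like Ifit3 included Ifit3b (r = 0.96), Ifi206 (0.96), Or2v1 (0.95) and Lig1 (0.94), and those most like Ifitm3 were Oma1 (0.98), Lig1, Snx2, Phf11d and Isg15 (0.95, 0.95, 0.94 and 0.94).

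**Figure D4:**
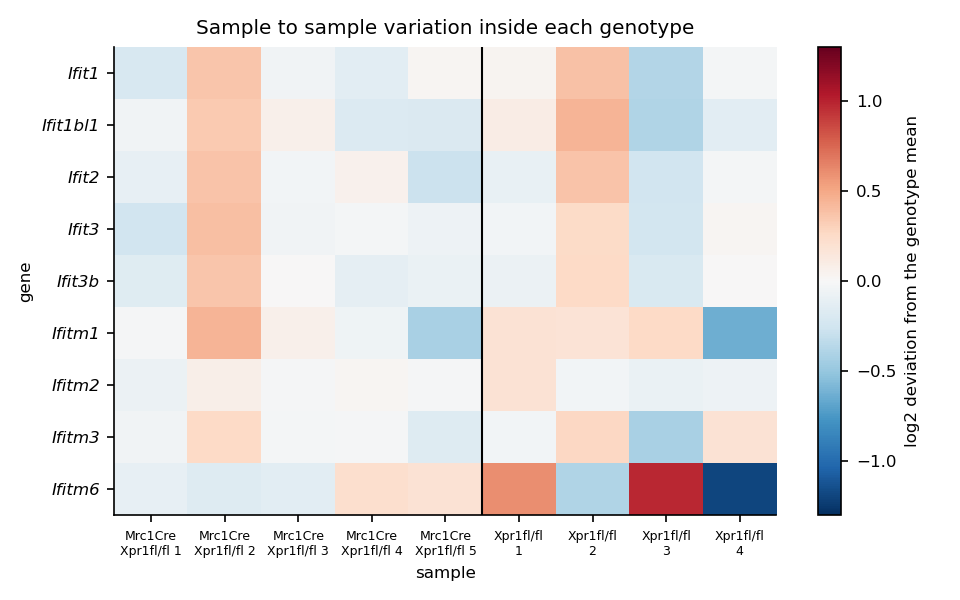
Deviation of each sample's log2 value from the mean of its genotype (colour, red above and blue below) for the 9 genes (rows) in the 9 samples (columns, genotypes divided by the black line). Sample 2 of either genotype is red across the IFIT genes and Ifitm3, and the strongest colours are those of Ifitm6 in control samples 3 and 4.

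The rest of the interferon pathway was read from lists of named genes, which were also chosen with earlier results of these data known. Of 54 other interferon-stimulated genes tested, 51 were higher and 0 lower (median log2 fold change 0.70), from Trim21 (0.21) to Oas3, a sensor of double-stranded RNA (2.90, limma adjusted p = 1.26e-05), while Isg20, Ddx60 and Mx2 were at -0.20, 0.13 and 0.50 and did not pass. Over all genes tested, 21.5% were called higher and 21.6% lower. With the date in the model the median of the 54 was 0.58. For genotype alone, Ifit3 and Ifit3b lay near the median of that list, Ifit1 and Ifit1bl1 above it and Ifitm2 at its lower end. Among 14 genes of type I interferon signalling, 8 were called higher and 2 lower (median 0.22), and with the date in the model the median was 0.23. None of 9 interferon ligand genes had a row in the table.

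Among these, the receptor chains differed little: Ifnar1 was not called (log2 difference 0.09, 95% CI -0.05 to 0.23, limma adjusted p = 0.301) and Ifnar2 was lower by a small margin (-0.16 ± 0.06 SE, adjusted p = 0.0374). Jak1 was higher (0.21, adjusted p = 0.0142) and Tyk2 was not called (0.16, 95% CI -0.03 to 0.35). The transcription factor genes Stat2 and Irf9 were higher, by 0.80 and 0.22 (adjusted p = 0.00273 and 0.00754). Irf7, which amplifies interferon production, was at 8148.4, 11905.8, 9308.3, 9481.2 and 8546.8 normalized counts in Mrc1Cre Xpr1fl/fl and 3284.3, 4510.4, 2569.8 and 3308.1 in Xpr1fl/fl samples, without overlap and with a log2 difference of 1.49 ± 0.15 (SE, limma adjusted p = 3.43e-05), close to that of Ifit1. Irf1 was higher as well (0.35, adjusted p = 0.0444), Irf3 was lower (-0.17, adjusted p = 0.0288) and Irf8 was not called (0.10, 95% CI -0.03 to 0.22). Of the inhibitors of the pathway, Usp18 and Socs1 were higher (1.37 and 0.88, adjusted p = 7.95e-05 and 0.0343) and Socs3 was not called (-0.14, 95% CI -0.42 to 0.14). The calls in this paragraph are for genotype alone. With the date in the model the log2 differences were -0.19 for Ifnar2, 0.07 for Jak1, 0.90 for Stat2 and 0.22 for Irf9. They were 1.34 for Irf7, 0.78 for Irf1, -0.09 for Irf3, 1.17 for Usp18 and 1.58 for Socs1.

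**Figure D5:**
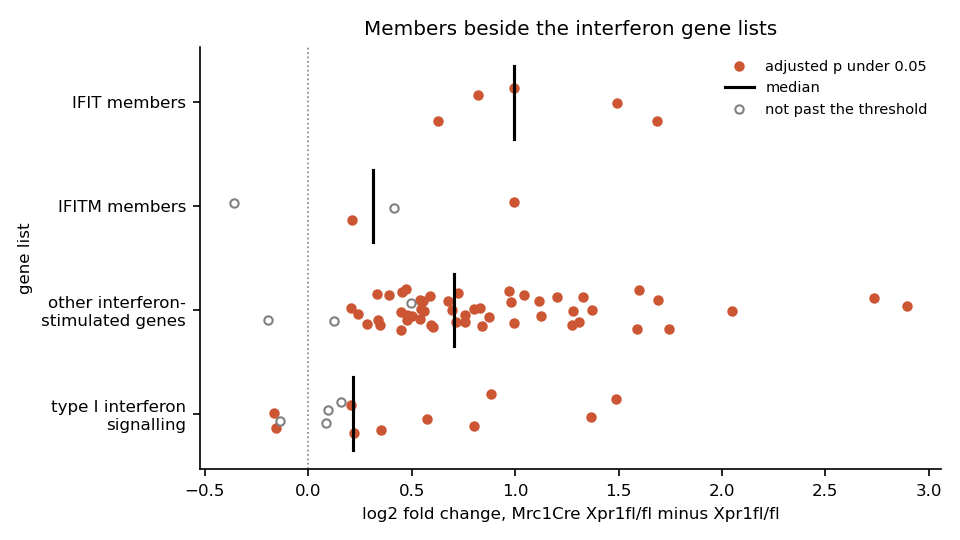
Log2 fold change (horizontal axis, Mrc1Cre Xpr1fl/fl minus Xpr1fl/fl) of each gene of 4 groups (rows, points spread vertically for visibility), with filled points past an adjusted p of 0.05, open points not past it and a black line at the median. The medians are 0.99 for the IFIT genes, 0.31 for the IFITM genes, 0.70 for other interferon-stimulated genes and 0.22 for signalling genes.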

How the data were processed

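RNA-seq of 9 samples was analysed from 1 table of normalized counts (signal values) that the authors deposited, made per their methods and labels from reads checked with FastQC, quantified with salmon on GRCm39, imported with tximport and divided by DESeq2 size or normalization factors. Versions, annotation release and any filter on low genes are not given in the sources used here. Raw depth is unknown, since the values are not whole counts, and normalized totals were 26942921 to 28309443 per sample. Libraries were made from 45 ng of RNA.

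Ensembl identifiers were matched to GENCODE mouse release 39 (13698 of 13708 matched). Values were compared on log2(normalized count + 1) with limma 3.58.1 (R 4.3.3; lmFit, eBayes with trend) after genes under 10 normalized counts in more than 5 samples were left out, adjusted by Benjamini-Hochberg over 13594 genes, threshold 0.05, all 9 samples, genotype alone. A fold change on this scale understates that of low genes. The script was tested on simulated data. Shares were tested with scipy 1.17.1. Named genes were the members, Xpr1, other family genes, the signalling list, extremes of the other lists, 3 neighbours per side of each cluster and the 5 genes most like Ifit3 and Ifitm3. The members and lists were chosen with earlier results of these data known. Alternatives were pseudocounts of 0.5 and 10, no filter or a filter at 50, 2 other scalings (75th percentile and quantile), no variance trend, the date, the replicate number as a block, each sample left out in turn, pairs added up and another transcript length. No protein sequence is printed, and 1 gene that the rule named is not reported here.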

Additional observations from a re-analysis of the deposited data

Results flagged for a closer look

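In 3 of 22 groups of values examined, 18 of members and 4 of shares, 1 sample stood far from the others of its genotype by Dixon's ratio at the 95% level, where chance marks about 1 in 20. Ifit3b was at 956.1 normalized counts in Mrc1Cre Xpr1fl/fl sample 2, above the other 4 samples of that genotype (ratio 0.728), and without that sample its log2 difference was 0.73 and still passed. Ifitm1 was at 79.1 in Xpr1fl/fl sample 4, below the other 3 controls (ratio 0.881), and without it Ifitm1 was called lower. Ifitm2 was at 4907.3 in Xpr1fl/fl sample 1, above the other 3 controls (ratio 0.842), and without it the log2 difference was 0.28 in place of 0.21.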

How the results depend on the processing

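All 9 members kept the direction of their log2 difference under the 18 alternatives run. Ifit1, Ifit1bl1 and Ifitm3 passed in all of them and Ifitm6 in none. With the date in the model the count of members called higher went from 7 to 3, that of members called lower from 0 to 1, all genes called from 5865 to 1194 and interferon list genes called higher from 59 to 26, the term leaving 1 Mrc1Cre Xpr1fl/fl sample to compare with 3 controls. With each sample left out in turn the counts ran from 6 to 7 members higher, 0 to 1 members lower (1 without Xpr1fl/fl sample 4), 4871 to 6099 genes and 56 to 61 interferon list genes higher, and the share differences from 2.05 to 2.60 percentage points for Ifit3b and from -15.2 to -11.5 for Ifitm2. The replicate numbers did not pair the samples (correlations of same-numbered samples' deviations of -0.035, 0.147, -0.003 and -0.024). With the replicate block 7 members were higher, 0 lower, 6226 genes were called and 59 interferon list genes were higher. The block thus changed no call of a member. Only Mrc1Cre Xpr1fl/fl has a sample 5, so the block takes that sample out of the comparison. The samples left share no date between the genotypes, so that fit cannot tell genotype from date. Added up, Ifitm2 and Ifitm3 gave a log2 difference of 0.62. Another transcript length exchanged Ifitm6 and Ifit2 in the order of levels in Mrc1Cre Xpr1fl/fl, which moved 2 places. Ifit1 and Ifit3b have 1 coding transcript each, so this check left their values per kb unchanged. With unknown raw depth, counting error could not be given.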
